A study of Drosophila melanogaster with 47 samples.

Results

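The cytosolic ribosome of Drosophila is built from ribosomal RNA and the proteins encoded by a set of ribosomal protein genes, named RpL for the large (60S) subunit and RpS for the small (40S) subunit. The family was taken as every listed gene whose symbol is RpL or RpS followed by a digit, together with RpLP0, RpLP1 and RpLP2, while the mRpL and mRpS genes of the mitochondrial ribosome were left out. It holds 91 of the 17137 genes listed, 53 of the large and 38 of the small subunit. RNA was measured in fly heads by poly(A) RNA sequencing in 47 libraries. The flies were males and females kept in 12 h of light and 12 h of dark for 4 days at 25 °C, and heads were taken at 6 Zeitgeber times (ZT, hours after lights on), ZT2, ZT6, ZT10, ZT14, ZT18 and ZT22. The deletion strains were homozygous for a second chromosome from which CRISPR had removed DNA of the clock gene timeless (tim). The strains were tim_up126 (12 libraries), tim_up122 (12), tim_up10 (6) and tim_in24 (6), with yw as the wild-type control (11). The up deletions lie upstream of tim and in24 lies in an intron. The up126 and up122 deletions were made with a tandem pair of guide RNAs and up10 and in24 with a single guide. Each deletion strain traces to its own edited chromosome, so a difference from yw is a difference between strains, and the deletion cannot be told apart from the rest of the strain's background.

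Ribosomal protein mRNAs are among the most abundant of any cell, and their transcription, from promoters with a polypyrimidine initiator, and their translation follow the TOR and Myc growth pathways. Subunits need their proteins in fixed proportions, and loss of a single copy of many of these genes gives the Minute phenotype of slow growth and thin bristles. Because the mRNAs are abundant and thought to be steady, RpL32 (also called rp49) is a customary internal control in fly work, and it was the control of the quantitative PCR in the study. The values below put RpL32 beside the rest of its family in the same libraries.

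The deleted gene was checked first. Over the day, tim was lower by 2.20 on the log2 scale in tim_up126, by 1.05 in tim_up122 and by 0.88 in tim_up10 (edgeR quasi-likelihood test, adjusted p = 2.0e-12, 6.4e-07 and 0.00018), and it differed from yw by -0.06 in tim_in24 (adjusted p = 0.84). Library totals ran between 1761896 and 10230355 counts. The 10 most abundant genes took a median of 12.6% of counts in tim_up126, 13.8% in tim_up122, 14.8% in tim_up10, 13.9% in tim_in24 and 11.7% in yw. Marker genes of neurons, glia and photoreceptors were present in every library, as head tissue should have. Of 6 testis germ line markers, 5 stayed at 3 counts or fewer in every library of each deletion strain, and in yw none of the 6 did, with a summed level of 1.10 to 6.43 CPM (counts per 1e6 counts of the library) in its libraries (median 1.65).

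The replicate number on a library mattered to this family. In tim_up126 the libraries numbered 1 gave the family 4.96 to 5.63% of all counts and those numbered 2 gave it 4.63 to 4.80%, with replicate 1 higher at 6 of 6 time points. In tim_up122 the order was the other way: the libraries numbered 1 gave 4.11 to 5.06% and those numbered 2 gave 5.07 to 6.26%. The tim_up122 libraries numbered 1 were also the shallower ones, with 2551357 to 4792553 counts against 5131684 to 7861357 counts for those numbered 2. In yw the difference had no fixed sign, and the median member differed between replicates by -0.16 to 0.19 on the log2 scale. The labels do not say what a number stands for, so these are 2 sets of libraries per strain that stand apart, and the day comparisons and rhythms of tim_up126 and tim_up122 are given with each set as well. The part of depth or handling in this split was not tested.

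Of the 91 members, 84 had enough counts to be tested and 7 did not. All 7 are second copies of a gene with an abundant partner, and most are known in Drosophila from germ cells: RpL10Aa had 0 counts in all libraries together, RpL37b had 1, RpL22-like and RpS28-like had 5 each, RpS19b had 16, RpS28a had 36 and RpS10a had 68. By chromosome, 19 members lie on 2L, 20 on 2R, 14 on 3L, 23 on 3R, 14 on X and 1, RpS3A, on 4. The genes are short, with a median coding length of 465 bases against 1185 bases for the other 13803 protein-coding genes, and a median 5′ UTR of 84 bases against 121. Within 28 members lie a total of 74 small nucleolar RNA (snoRNA) genes, which guide the chemical modification of ribosomal RNA. Exons of 6 members overlap another gene on the same strand and those of 24 overlap a gene on the other strand, and since the strand setting of the counting is not given in the sources used here, reads of such pairs cannot be told apart.

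Levels among the tested members spanned a wide range at the low end and a narrow one above it. Levels in CPM (counts per 1e6 counts of the library, with the library size scaled by the trimmed mean of M-values over all genes, TMM) averaged over all libraries ran between 1.12 for RpS5b and 1552 for RpL3, a protein next to the peptidyl transferase centre, with a median member at 590 CPM. Per kilobase of coding sequence, the order was led by RpL41, which encodes the smallest protein of the ribosome (75 coding bases), at 9108 CPM per kb. RpS29 followed at 3657, RpL39 at 2617, RpS28b at 2528 and RpLP1, an acidic protein of the ribosomal stalk that recruits elongation factors, at 2286 CPM per kb. A short coding sequence raises this scale, and the sources differ on whether reads were counted over whole genes or at their 3′ ends, so the order per kilobase is uncertain. Per kilobase of exon RpL41 stayed first while RpS29 stood at rank 53. RpL32, at 3R:30045229-30046161 on the minus strand (FBgn0002626, BDGP6), averaged 547 CPM and ranked 53 of 91 by mean CPM and 40 of 91 per kilobase of coding sequence.

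Duplicate genes divided their reads unevenly, and the division differed from pair to pair. The counts of all libraries were summed for each pair, and the intervals are exact Clopper-Pearson 95% intervals, which cover counting error only. RpS14b, a tandem copy of RpS14a, supplied 31.5% of the pair's counts (interval 31.3 to 31.8%), between 28.6 and 34.5% in single libraries. RpL34b supplied 78.6% of the RpL34 counts (73.7 to 81.8% by library). RpS15Ab supplied 4.08% beside RpS15Aa (2.60 to 6.17% by library). RpL24-like and RpL7-like, whose yeast counterparts act in ribosome assembly and are not part of the finished subunit, had 18.6% and 3.77% of the counts of their pairs with RpL24 and RpL7. RpL7-like has the same count in every library as the row of CG34164, a gene that overlaps it on the same strand, so the 2 rows are 1 measurement. RpS10b, RpS28b and RpL10Ab supplied 99.9%, 100% and 100% of their pairs, and RpS19b, RpL22-like and RpL37b supplied 0.0156%, 0.00236% and 0.000666%. Reads that fit both copies of a near-identical pair may have been divided by the authors' counting, so these shares are uncertain to that extent. RpL37a and RpL37A, on X and 2L, are different genes whose symbols differ only in case.

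The family as a whole took a larger share of the counts in tim_up10 and tim_in24 than in yw. The share was 5.27 to 6.08% in tim_up10 (median 5.55%) and 5.42 to 6.74% in tim_in24 (median 5.82%), against 4.36 to 5.01% in yw (median 4.82%), so that every library of both strains lay above every yw library. In tim_up126 it was 4.63 to 5.63% (median 4.88%) and in tim_up122 4.11 to 6.26% (median 5.06%), and both ranges overlapped that of yw. On the log2 scale the summed CPM of the members differed from yw by 0.34 in tim_up10, 0.37 in tim_in24, 0.11 in tim_up126 and 0.13 in tim_up122, without a test. The SD of this sum between single libraries of the same strain and time was 0.16 over 17 pairs.

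**Figure D1:**
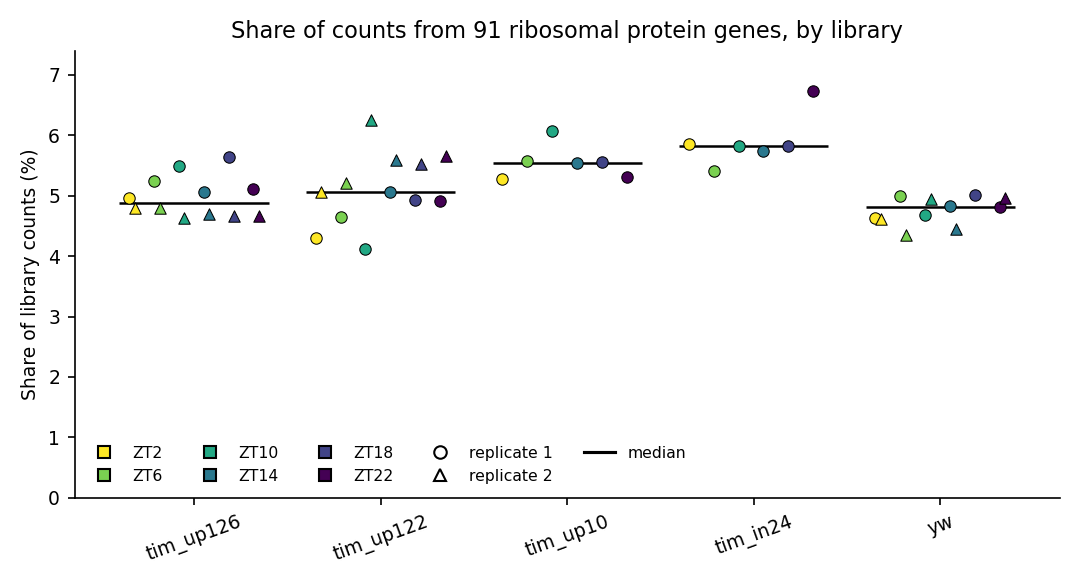
Share of all counts taken by the 91 ribosomal protein genes (y axis, percent, from 0) in each library, with the strains along the x axis, colour for Zeitgeber time, circles for replicate 1, triangles for replicate 2 and a line at the median of each strain. The tim_up10 and tim_in24 points lie at 5.27% or more, above the yw points, and in tim_up126 and tim_up122 circles and triangles split in opposite directions.

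Marker genes of other cell types were read in the same libraries. The summed CPM of the yolk protein genes Yp1, Yp2 and Yp3, made by the female fat body, had a median of 69454 in tim_up10 (53095 to 97450), 56579 in tim_in24 (44903 to 67052), 51700 in tim_up126 (39115 to 72914) and 60489 in tim_up122 (44361 to 74711), against 47001 in yw (25290 to 63360), and each range overlapped that of yw. The 4 fat body markers, 3 of them tested, had medians of 10833 CPM in tim_up10, 6560 in tim_in24, 7516 in tim_up126, 7994 in tim_up122 and 5636 in yw. The tim_up10 libraries, at 9747 to 12878 CPM, lay above those of yw, at 4139 to 8399 CPM, and the other strains overlapped yw. Most of this sum was apolpp (median 6639 CPM over all libraries, against 341 for Lsp2), and the markers did not move together. The log2 differences of the 3 tested from yw ran from -0.57 to 1.91 in tim_up10 and -2.05 to 0.36 in tim_in24. They ran from -1.17 to 1.07 in tim_up126 and -0.67 to 1.16 in tim_up122. The 6 photoreceptor markers had medians of 54913, 59217, 50698 and 54054 CPM in the same 4 strains and 48187 CPM in yw. Each range overlapped that of yw. Of the 6, 5 were called higher in tim_up10, 5 in tim_in24, 2 in tim_up126 and 2 in tim_up122, and none lower. Of all genes tested 11.2%, 12.3%, 12.1% and 12.6% were called higher in the same order. The 4 hemocyte markers summed to 566 to 626 CPM in tim_up10, 439 to 519 in tim_in24, 408 to 603 in tim_up126 and 316 to 506 in tim_up122, against 418 to 504 CPM in yw, and only tim_up10 did not overlap yw. Of these 4 markers, 2 were called higher in each deletion strain, and 2 were called lower in tim_up122. The sums of the 5 neuron, 5 glia and 5 muscle markers overlapped between each strain and yw, though single markers were called. Of the glia markers 2 were lower in tim_up10, 1 in tim_in24, 2 in tim_up126 and 2 in tim_up122, where 1 was higher. Of the muscle markers 1 was lower in tim_up10 and 1 in tim_up126, and 2 were higher and 2 lower in tim_in24 and in tim_up122. Of the neuron markers 1 was higher in tim_up122. In whole heads more cells of a type and more RNA per cell cannot be told apart, and the part of tissue make-up in the values of the ribosomal protein genes was not tested.

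The comparisons over the day set each deletion strain against yw and average over the time points, so they share the yw libraries and are not independent of each other. In tim_up10, 72 of the 84 tested members were higher and 1 was lower, where 11.2% of all 11027 tested genes were higher and 12.2% were lower. The median member differed from yw by 0.35 on the log2 scale and the median gene by -0.04. The rise covered both subunits, 46 of 50 members of the large and 26 of 34 of the small subunit. RpS20, of the head of the small subunit, rose most. It had 499 to 579 CPM in tim_up10 (median 532), against 351 to 413 CPM in yw (median 381), with no overlap between the strains (log2 difference 0.48 ± 0.09, SE, adjusted p = 0.00028). RpLP1 rose by 0.46 ± 0.08, RpS3, which lines the mRNA entry, by 0.45 ± 0.08, RpL39, in the exit tunnel, by 0.45 ± 0.11 and RpL7 by 0.44 ± 0.09 (adjusted p = 7.2e-05, 0.00021, 0.0033 and 0.00071). RpL7 had 919 to 1065 CPM in tim_up10 and 628 to 785 CPM in yw, also without overlap. For 70 of the 84 members every tim_up10 library lay above every yw library, which was so for 3.94% of all genes tested. As tim_up10 has 1 set of libraries, these counts cannot be told apart from a shift of a whole set, as seen between the tim_up122 sets.

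The 11 members not called in tim_up10 were RpL21, RpL24, RpL27A, RpL37A, RpS14a, RpS2, RpS25, RpS27, RpS30, RpS3A and RpS5b. RpL37A had 299 to 347 CPM in tim_up10 against 279 to 348 CPM in yw, a difference of 0.03 ± 0.10 that the spread of the libraries covered. RpS30, made as a fusion to a ubiquitin-like protein, had 598 to 660 CPM against 543 to 610 CPM in yw, ranges that overlapped at their ends. RpS15Ab was the 1 member called lower, with 15.1 to 18.5 CPM in tim_up10 against 16.5 to 23.0 CPM in yw (log2 difference -0.26 ± 0.09, adjusted p = 0.049), while its partner RpS15Aa rose by 0.31 ± 0.07. The RpS15Ab call was lost in 16 of the 17 fits that left out a library. With scaling by library totals in place of TMM, the median of all genes moved to -0.17 and the median member was at 0.23. Then 46 members were higher and 1 lower, where 762 of all 11027 genes tested were higher and 3390 lower. The share of higher among all called genes was 18.4%, against 47.7% with TMM.

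In tim_in24, 69 of 84 members were higher and 0 lower, where 12.3% of all tested genes were higher and 13.1% lower. None of the 84 was called lower by DESeq2 either, and 77 had an unadjusted p under 0.05 with edgeR, in either direction. The share of all genes at that unadjusted cut was not counted. The median member differed by 0.36 and the median gene by -0.03, and the rise again covered both subunits, 44 of 50 and 25 of 34. For 64 members all tim_in24 libraries exceeded all yw libraries, which was so for 3.8% of genes. Here too there is 1 set of libraries, so a shift of the set and a difference of the strain cannot be told apart. RpL4, whose loop reaches into the exit tunnel (FBgn0003279, 3R:27922821-27924888, plus strand), rose most. It had 1248 to 1627 CPM in tim_in24 (median 1517), against 836 to 1057 CPM in yw (median 973), well apart (log2 difference 0.61 ± 0.09, adjusted p = 1.4e-05). Exons of RpL4 overlap a noncoding gene on the other strand. RpL23A, at the mouth of the exit tunnel, had 1167 to 1382 CPM in tim_in24 against 731 to 1013 CPM in yw and rose by 0.55 ± 0.08. RpS20, RpL7 and RpL6 rose by 0.53, 0.52 and 0.52 (adjusted p = 8.4e-05, 0.00011 and 1.4e-05). Members not called included RpL27A, RpL32, RpL36A, RpL37A, RpL38, RpL39, RpS14a, RpS15, RpS15Ab, RpS2, RpS27, RpS28b, RpS30 and RpS5b. RpL39 had 390 to 447 CPM in tim_in24 against 319 to 424 CPM in yw, and these ranges overlapped (0.21 ± 0.11, adjusted p = 0.18). By library totals the share of higher among all called genes was 30.4%, against 48.5% with TMM.

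**Figure D2:**
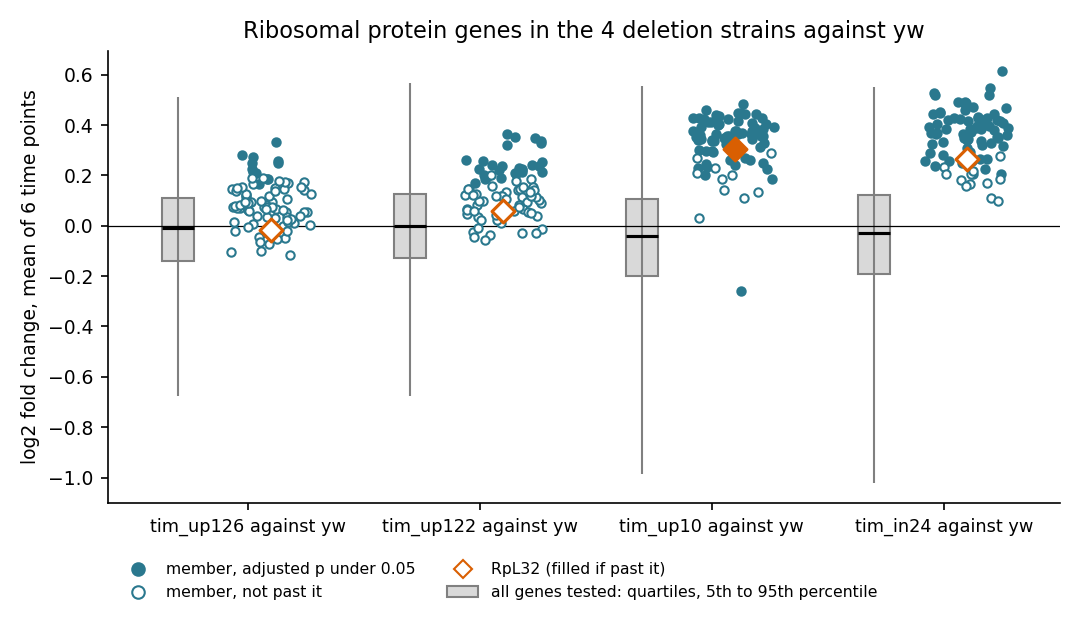
Log2 differences over the day (y axis) in each deletion strain against yw (x axis), with 1 point per tested ribosomal protein gene except RpS5b, filled where the adjusted p was under 0.05, a diamond for RpL32, and a grey box and line for the quartiles and the 5th to 95th percentiles of all genes tested. The points centre on 0.35 in tim_up10 and 0.36 in tim_in24, and on 0.08 in tim_up126 and 0.13 in tim_up122.

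In tim_up126, 12 of 84 members were higher and 0 lower, against backgrounds of 12.1% higher and 13.3% lower, so the share of members called higher, 14.3%, was near that of all genes in this fit. The difference was positive for 70 of the 84 members, called or not, and for 47.9% of all genes. The count of members called was larger with an additive model, with no filter on low counts and with only the libraries of the 2 strains. DESeq2 too called none lower, and 20 members had an unadjusted p under 0.05 with edgeR, in either direction. The share of all genes at that cut was not counted. It takes in all genes called higher or lower, so the 20 do not show a rise of the family. The median member differed from yw by 0.08 and the median gene by -0.01. Of the 12, 11 were among the 50 large and 1 among the 34 small subunit members tested, while the median differences of the subunits were 0.09 and 0.08, and the difference between subunits was not tested. RpL4 rose most of the members called and had 1080 to 1404 CPM in tim_up126 (median 1213), against 836 to 1057 CPM in yw (0.33 ± 0.08, adjusted p = 0.0020). RpL3 rose by 0.28, RpL7-like by 0.27, RpL23A by 0.26 and RpLP1 by 0.25. The RpL7-like call, which its row shares with CG34164, was lost in 11 of the 23 fits that left out a library, and those of RpL4, RpL3, RpL23A and RpLP1 held in all 23. The count differed between the 2 sets of libraries: with the tim_up126 libraries numbered 1 alone 19 members were higher, and with those numbered 2 alone 0 were higher and 2 were lower. The share of all genes called in these fits was not counted. RpL4 was then at 0.27 with the libraries numbered 2 (adjusted p = 0.054) and at 0.42 with those numbered 1. Leaving out single libraries moved the count between 6 and 17. It fell to 6 or 7 without replicate 1 of tim_up126 at ZT6, ZT10 or ZT18 or without yw replicate 1 at ZT10 or ZT22 or replicate 2 at ZT6 or ZT14. With library totals the median member was at 0.03. Then 6 members were higher and 1 lower, where 976 of all 11027 genes tested were higher and 2040 lower. The share of higher among all called genes was 32.4%, against 47.8% with TMM.

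In tim_up122, 27 of 84 members were higher and 0 lower, where 12.6% of all genes tested were higher and 13.6% lower. DESeq2 again called none lower, and 37 members had an unadjusted p under 0.05 with edgeR, in either direction, with all genes not counted at that cut. The median member differed by 0.13 and the median gene by -0.00. The 27 were 17 of 50 large and 10 of 34 small subunit members. RpL29, a small basic protein of the large subunit, rose most of the members called (0.36 ± 0.05, adjusted p = 1.1e-05), then RpL41 (0.35), RpS27A (0.35), RpL7-like (0.34) and RpLP1 (0.33). With the tim_up122 libraries numbered 1 alone 11 members were higher and 5 lower, and with those numbered 2 alone 62 were higher, and the share of all genes called in these fits was not counted. The count was 47 without tim_up122 replicate 1 at ZT10, the library with the lowest family share of all, at 4.11%. RpL29, RpL41, RpS27A and RpLP1 were higher with either set of tim_up122 libraries. By library totals the share of higher among all called genes was 35.9%, against 48.0% with TMM.

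The strains tim_up126 and tim_up122, the only pair with 2 libraries at all 6 time points, carry deletions of nearly the same place. Between them 0 of 84 members were higher and 7 lower in tim_up126, where 5.85% of all tested genes were higher and 5.57% lower. With an unadjusted p under 0.05 there were 18 members in either direction, with all genes not counted at that cut. DESeq2 also called none higher. RpL29 (FBgn0016726, 2R:21293768-21294404, plus strand) differed most of the members called. It had 202 to 247 CPM in tim_up126 (median 217) against 243 to 332 CPM in tim_up122 (median 296), ranges that overlapped only at the ends, while yw had 202 to 264 CPM (median 227). The log2 difference was -0.42 ± 0.05 (adjusted p = 3.9e-06). RpS27A (FBgn0003942, 2L:10408352-10410456, plus strand), made as a fusion to ubiquitin and so also a source of ubiquitin, had 541 to 651 CPM in tim_up126 (median 585) against 601 to 902 CPM in tim_up122 (median 719), which overlapped in part (-0.29 ± 0.06, adjusted p = 0.0013). RpL41 (FBgn0066084, 2R:24903416-24903935, minus strand) had 498 to 719 CPM in tim_up126 (median 622) against 617 to 892 CPM in tim_up122 (median 767), again with some overlap (-0.29 ± 0.06, adjusted p = 0.0021).

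The other 4 members called lower in tim_up126 than in tim_up122 differed by less: RpL30 by -0.21, RpL28 by -0.21, RpL23 by -0.19 and RpS28b by -0.17. RpL29, RpS27A, RpL41 and RpL30 stayed past the threshold in each of the 24 fits that left out a library, and RpL28 in 13 of them. RpL29 and RpS27A were also past it with either set of libraries of either strain. RpL41 was not with the tim_up126 libraries numbered 1 alone (-0.22, adjusted p = 0.056). For fits with fewer libraries the share of all genes called was not counted. The count of members called lower was 15 with the tim_up122 libraries numbered 2 alone, and 19 were called higher and 3 lower with those numbered 1 alone. It fell to 4 without tim_up122 replicate 2 at ZT10, replicate 1 at ZT2, ZT6, ZT14 or ZT18, or any 1 of the 6 tim_up126 libraries numbered 2 and was 14 without tim_up122 replicate 1 at ZT10. Exons of RpL29 overlap CG9752 on the other strand and those of RpS27A overlap Ip259 on the same strand, so their reads may hold some of these genes.

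**Figure D3:**
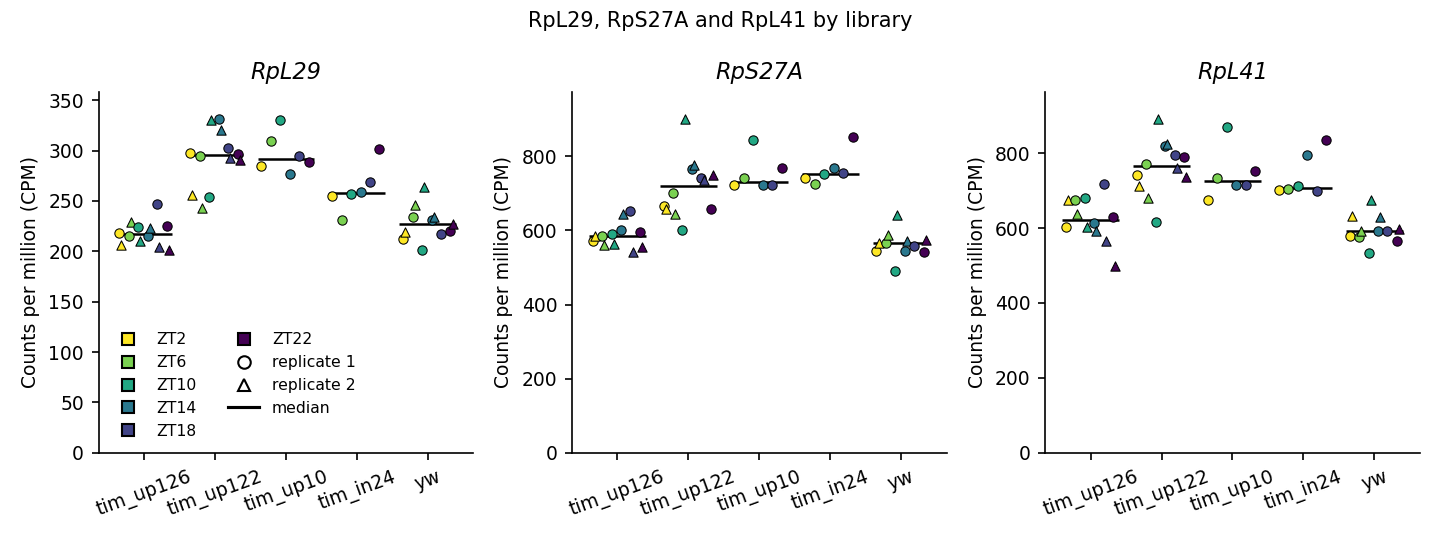
CPM (y axis, from 0) of RpL29, RpS27A and RpL41, 1 panel each, in every library of the 5 strains (x axis), with colour for Zeitgeber time, circles and triangles for replicates 1 and 2 and a line at each median. The medians of RpL29 are 217 CPM in tim_up126, 296 CPM in tim_up122 and 227 CPM in yw.

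RpL32 was higher in tim_up10 than in yw, and in tim_in24 it lay above most yw libraries without passing the threshold. In tim_up10 it had 607, 642, 682, 630, 610 and 641 CPM from ZT2 to ZT22, against 467 to 562 CPM in yw (median 520), with every tim_up10 library above every yw library. In tim_in24 it had 640, 560, 579, 625, 613 and 707 CPM from ZT2 to ZT22, and only the ZT6 library, at 560 CPM, fell within the range of yw. In tim_up126 it had 449 to 593 CPM (median 513) and in tim_up122 381 to 724 CPM (median 527), and both ranges took in that of yw. By mean the order was tim_up10 (635 ± 27.5 CPM, SD, n = 6), tim_in24 (621 ± 51.5, n = 6), tim_up122 (536 ± 99.4, n = 12), yw (515 ± 28.0, n = 11) and tim_up126 (508 ± 41.2, n = 12). Neighbours in this order lay within their SDs of each other except tim_in24 and tim_up122, whose means differed by more than the SD of tim_in24 and less than that of tim_up122.

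The log2 difference of RpL32 over the day was 0.30 ± 0.10 in tim_up10 (adjusted p = 0.036), 0.27 ± 0.10 in tim_in24 (adjusted p = 0.062), -0.02 ± 0.09 in tim_up126 (adjusted p = 0.93) and 0.06 ± 0.09 in tim_up122 (adjusted p = 0.69). An exact two-sided permutation test of RpL32 alone, with strain labels exchanged within each time point, gave p = 0.00206 for tim_up10 and p = 0.00206 for tim_in24, the smallest p that 486 splits allow, and p = 0.728 for tim_up126 and p = 0.686 for tim_up122 over 23328 splits. Adjusted over these 4 exact tests the values were 0.00412, 0.00412, 0.728 and 0.728. The exchange treats the libraries of a strain as independent across time points. At every time point RpL32 was lower in replicate 1 than in replicate 2 of tim_up122, and higher in replicate 1 of tim_up126. Libraries of a set can thus shift together, and with 1 set each in tim_up10 and tim_in24 these p-values do not cover such a shift. The edgeR call in tim_up10 held in 10 of 17 fits without a library. It was lost (adjusted p between 0.0503 and 0.0829) without tim_up10 at ZT6, ZT10, ZT14 or ZT22 or without yw replicate 1 at ZT10 or ZT14 or replicate 2 at ZT6. With library totals as the scaling it was 0.18 (adjusted p = 0.17). In tim_in24 the difference passed the threshold without yw replicate 2 at ZT10 (0.30, adjusted p = 0.044), with an additive model of strain and time (0.27, adjusted p = 0.010), with no filter on low counts (0.27, adjusted p = 0.00081) and with only the libraries of the 2 strains (0.28, adjusted p = 0.0031). With the tim_up122 libraries numbered 1 alone RpL32 differed from yw by -0.17 (adjusted p = 0.074), and with those numbered 2 alone it was higher by 0.26 (adjusted p = 0.0087).

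**Figure D4:**
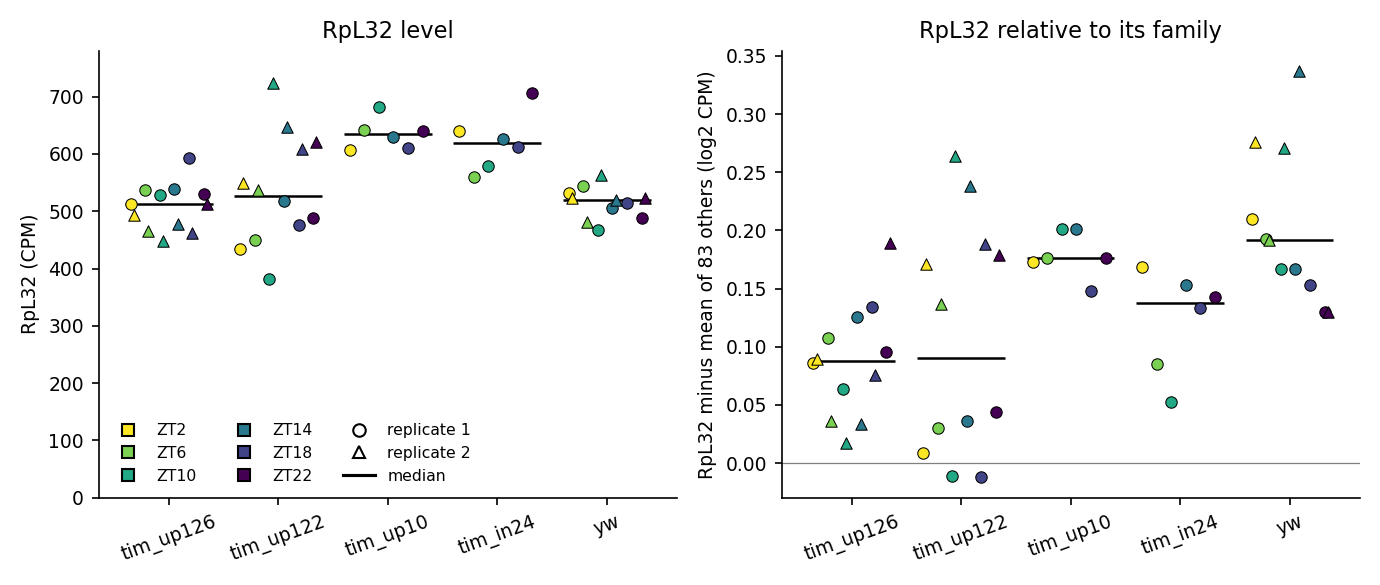
RpL32 in every library of the 5 strains (x axes), as CPM (left, from 0) and as the difference of its log2 CPM from the mean of the other 83 tested members (right), with colour for Zeitgeber time, circles and triangles for replicates 1 and 2 and a line at each median. All 6 tim_up10 libraries lie at 607 CPM or more, above the 11 yw libraries, while the medians of the difference are 0.18 in tim_up10 and 0.19 in yw.

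RpL32 lay near the middle of its family in spread over all libraries and near the top in spread between replicates. The SD of its log2 CPM over the 47 libraries was 0.20, rank 50 of 84 counted from the steadiest, with members between 0.12 for RpL21 and 1.03 for RpS5b and a median of 0.19. The median over all tested genes was 0.24, and over the 1553 other genes at or above 7 log2 CPM it was 0.17. Between replicates of the same strain and time the SD of RpL32 was 0.23, rank 75 of 84, and the 2 tim_up122 libraries of ZT10 differed by -0.93 on the log2 scale. The log2 ratio of RpL32 to the mean of the other 83 tested members had a median of 0.18 in tim_up10, 0.14 in tim_in24, 0.09 in tim_up126, 0.09 in tim_up122 and 0.19 in yw. In tim_up122 this ratio was -0.01 to 0.04 in the libraries numbered 1 and 0.14 to 0.26 in those numbered 2. Between strains the mean ratio differed from yw by -0.02 in tim_up10, -0.08 in tim_in24, -0.11 in tim_up126 and -0.09 in tim_up122, averaged over the time points. By library it was 0.18 ± 0.02 in tim_up10 (SD, n = 6), 0.12 ± 0.04 in tim_in24 (n = 6), 0.09 ± 0.05 in tim_up126 (n = 12), 0.11 ± 0.10 in tim_up122 (n = 12) and 0.20 ± 0.07 in yw (n = 11). These differences were not tested.

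Scaling by RpL32 shifted the other genes by different amounts in different strains. Each library is then divided by its own RpL32 count, so the shift restates the RpL32 differences given above and is not a further result. With RpL32 counts as the scaling factor, the median of all tested genes was -0.35 in tim_up10 and -0.30 in tim_in24, against -0.04 and -0.03 with TMM, and 0.01 in tim_up126 and -0.04 in tim_up122. The share of higher among all called genes was then 6.42% in tim_up10 and 9.70% in tim_in24, and 49.9% in tim_up126 and 36.9% in tim_up122. Members higher by count were 0 in tim_up10, where 2 were lower, 6 in tim_in24, 7 in tim_up126 and 5 in tim_up122. Of all 11027 genes tested, 310 were higher and 4516 lower in tim_up10. In the other strains 358 were higher in tim_in24, 678 in tim_up126 and 545 in tim_up122. On this scale tim differed from yw by -1.19 in tim_up10 (edgeR, adjusted p = 4.5e-05), against -0.88 with TMM. In tim_in24 tim differed by -0.33, not past the threshold (adjusted p = 0.16), against -0.06 with TMM. In tim_up126 tim differed by -2.19 and in tim_up122 by -1.07, against -2.20 and -1.05 with TMM.

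Almost none of the family was called for a 24 h rhythm. A cosine and sine of 24 h were fitted to the libraries of each strain with 2 replicates. In yw 0 of 84 members were called, where 15.6% of all tested genes were. In tim_up126 0 members were called against 6% of all genes, and in tim_up122 1 against 7.28%. With an unadjusted p under 0.05 there were 2 members in yw (RpL22 and RpS5b) and 1 in tim_up126 (RpS15Ab). In tim_up122 there were 4 (RpS5b, RpL24-like, RpS15Ab and RpL34a). At that cut 3115 of all 11027 genes tested stood in yw, 1831 in tim_up126 and 2167 in tim_up122. DESeq2 called 0 members in each strain. With 1 set of 6 libraries at a time edgeR called 0 members in tim_up126 and 0 in tim_up122, with 1 member at an unadjusted p under 0.05 in each set. Of all genes, 370 and 230 were called with the tim_up126 libraries numbered 1 and 2, and 63 and 187 with those of tim_up122. Few genes of any kind were called in these fits, so the 0 members say little about the family. The difference in rhythm from yw was called for 0 members in tim_up126 and 0 in tim_up122, against 1.54% and 2.04% of all genes. In each, 1 member had an unadjusted p under 0.05, and DESeq2 called 0. In the fits of 1 set and of the difference, all genes were not counted at the unadjusted cut.

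The fitted amplitudes were small. The median member had a log2 amplitude of 0.03 in tim_up126, 0.11 in tim_up122, 0.05 in tim_up10, 0.09 in tim_in24 and 0.04 in yw, and the median gene had 0.12, 0.13, 0.15, 0.17 and 0.14 in the same strains. RpL32 had 0.05, 0.11, 0.05, 0.13 and 0.01. The genes set beside the members here were not matched to them in abundance. Most members shared a similar fitted peak time within tim_up122, tim_up10 and tim_in24 (16.1, 9.5 and 21.2 h for RpL32), which was not tested. Leaving RpS5b aside, the highest member amplitude was 0.27 in tim_up126 (RpS15Ab) and 0.16 in yw (RpL22), beside 0.60 and 2.05 for tim in the same libraries. In tim_up10 and tim_in24, with 1 library per time point, the amplitudes are a description without a test. These values come from a single sampled day, every 4 h, so a rhythm of smaller amplitude was not detectable beyond the spread of replicates.

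**Figure D5:**
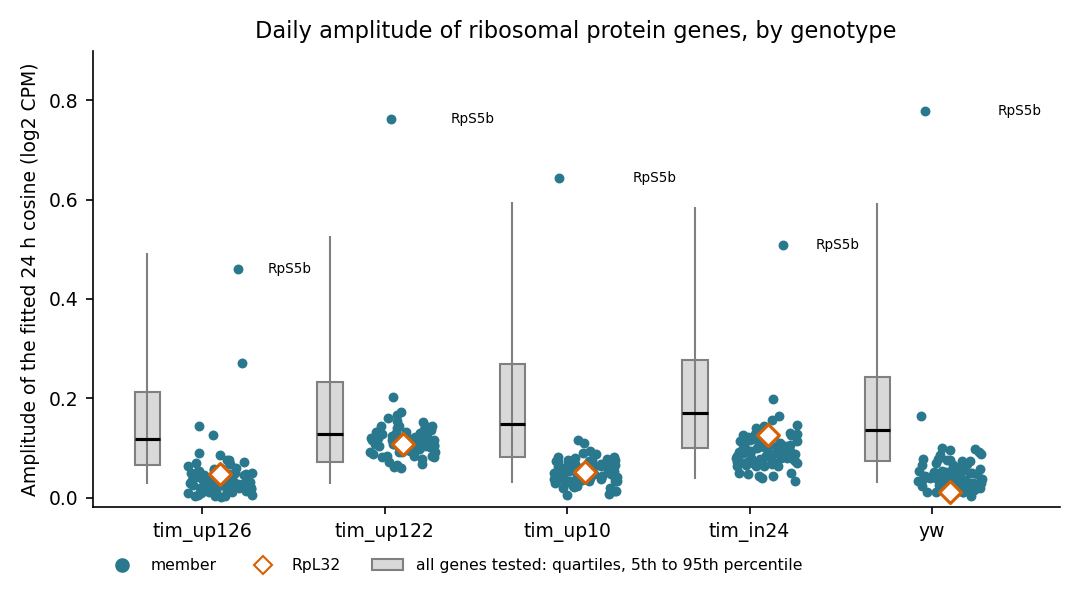
Log2 amplitude of the fitted 24 h rhythm (y axis) in each strain (x axis), with 1 point per tested ribosomal protein gene, a diamond for RpL32, and a grey box and line for the quartiles and the 5th to 95th percentiles of all genes tested. The median member lies below the median gene in each strain, nearest to it in tim_up122 (0.11 against 0.13), and RpS5b, a gene of few counts, stands apart.

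The 1 call in tim_up122, RpS5b (FBgn0038277, 3R:14900432-14901563, minus strand; adjusted p = 0.026), came from a single library. RpS5b, known from the ovary, had 303 counts in all libraries together, 186 of them in tim_up122 replicate 2 at ZT6 (30.3 CPM). No other library had more than 11 counts, or 1.86 CPM. The same library had a summed level of 84.7 CPM for the 5 ovary germ line markers (vas, nos, osk, bam and exu), where the highest of the other 46 libraries had 7.43 CPM. Without that library RpS5b failed the filter on low counts, and the call was also lost without replicate 2 of tim_up122 at ZT14 or at ZT18.

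Genes that work with the ribosome were read from lists of the same pathway. The shares of all tested genes called higher were 11.2% in tim_up10, 12.3% in tim_in24, 12.1% in tim_up126 and 12.6% in tim_up122, and no list was tested as a whole. Of 7 translation elongation factors tested, 6 were higher in tim_up10, 7 in tim_in24, 5 in tim_up126 and 5 in tim_up122. None was called lower, and the median factor differed from yw by 0.51, 0.42, 0.33 and 0.27 in the same order. eEF1beta, a subunit of the exchange factor that recharges eEF1alpha with GTP, had a median of 403 CPM in tim_up10, 473 in tim_in24, 361 in tim_up126 and 320 in tim_up122, against 180 CPM in yw (log2 differences 1.22, 1.39, 1.05 and 0.90). eEF1alpha1, which carries aminoacyl-tRNA to the ribosome, rose by 0.72, 0.79, 0.57 and 0.31 in the same order. Of 27 initiation factors tested, 15 were higher in tim_up10, 13 in tim_in24, 8 in tim_up126 and 8 in tim_up122, with medians of 0.21, 0.17, 0.07 and 0.05, and 2 (eIF1 and eIF3k) were lower in tim_up126. eIF3k was lower in tim_up126 than in tim_up122 by -0.59 (adjusted p = 1.4e-09).

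Of 5 ribosome-associated proteins outside the naming rule, 5 were higher in tim_up10, 5 in tim_in24, 3 in tim_up126 and 3 in tim_up122, with medians of 0.31, 0.39, 0.21 and 0.21 and none lower. Among them sta, the small subunit protein also called RpSA, rose by 0.29, 0.52, 0.21 and 0.21, and Nacalpha, a subunit of the nascent chain complex, by 0.45, 0.39, 0.26 and 0.25. Of 20 genes for ribosome assembly, 7 were higher in tim_up10, 14 in tim_in24, 8 in tim_up126 and 15 in tim_up122, with medians of 0.22, 0.33, 0.23 and 0.26. nop5, a core protein of the box C/D particles, rose by 0.63, 0.92, 0.72 and 0.83. Of 6 snoRNA host genes, 1, 3, 2 and 3 were higher and none lower in the same order, with medians of 0.05, 0.38, 0.17 and 0.36, and Uhg5 was higher in each (0.42, 0.71, 0.60 and 0.35). Of 14 genes of TOR, insulin and Myc signalling, 4, 4, 5 and 7 were higher and none lower, with medians of 0.11, 0.12, 0.13 and 0.16. Among them was Rheb, the GTPase that activates TOR (0.25, 0.40, 0.22 and 0.29). The 6 promoter factors Dref, M1BP, Trf2, Trl, BEAF-32 and Tbp were not called, with log2 differences between -0.16 and 0.16.

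The lists were also counted with 1 set of libraries of tim_up126 or tim_up122 at a time. The share of all genes called in these fits was not counted, so these counts have no background beside them. In tim_up126 the libraries numbered 1 gave 5 elongation, 7 initiation and 6 assembly genes higher and those numbered 2 gave 4, 7 and 10. Of the growth signalling genes 1 was higher with the tim_up126 libraries numbered 1 and 6 with those numbered 2, and of the snoRNA hosts 1 with either set. In tim_up122 the libraries numbered 1 gave 3 elongation, 7 initiation and 8 assembly genes higher and those numbered 2 gave 5, 5 and 11. Of the growth signalling genes 4 were higher with either tim_up122 set, and of the ribosome-associated proteins 1 with the libraries numbered 1 and 4 with those numbered 2.

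Of 5 genes of the response to loss of a ribosomal protein gene, Gadd45 rose by 1.15 in tim_up10, 1.04 in tim_in24, 1.53 in tim_up126 and 1.46 in tim_up122, and GstE6 was lower in the same strains (-0.27, -0.32, -0.49 and -0.55). With either set of libraries of tim_up126 or tim_up122 alone, 1 of the 5 was higher and 1 lower, with all genes not counted in these fits. Xrp1, the transcription factor at the centre of that response, differed by -0.28 in tim_in24, where it was lower (adjusted p = 0.00012), and by -0.13, 0.05 and -0.01 in tim_up10, tim_up126 and tim_up122, where it was not called.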

How the data were processed

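Poly(A) RNA of fly heads was sequenced in 47 libraries, grouped by the strain and time point of their labels. The deposited values used here are whole-number counts per gene symbol, not normalized by the authors. The deposited notes name STAR, SAMtools, featureCounts and DESeq2 with the genome dm6, while the study's methods name Tophat and ESAT, which counts reads near 3′ ends; versions, annotation and strand setting are not given in the sources used here. A deposited table of normalized counts was not used, and 0 columns of per-sample values in the counts were left out. Gene positions, lengths and overlaps come from Ensembl release 115 (BDGP6, the dm6 assembly), in which all 91 members were matched. In RpL and RpS pairs that are near-identical, reads may be assigned to either copy.

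Tests used edgeR 4.0.16 in R 4.3.3 (scaling by TMM, filterByExpr, the quasi-likelihood test, Benjamini-Hochberg adjustment over all 11027 genes tested, threshold 0.05), with 1 coefficient per strain and time point over all libraries. A time point with 1 library is assumed to vary as the duplicated ones do. Differences over the day are means over the time points that both strains have. A 24 h rhythm was modelled by cosine and sine terms within a strain, and a difference in rhythm by their interaction with strain. The log2 CPM used a prior count of 2. The tests were tried on simulated data. The members and all lists were chosen with earlier results of these data known. Genes named are RpL32, the 5 highest and 5 lowest members per kilobase, both copies of each pair, the 5 members that rose and the 5 that fell most in each comparison, the 5 with the smallest p in each rhythm test, members that share counts with another row, and called genes of the pathway lists. Members not called in tim_up10 or tim_in24, and the highest or lowest of other values, were named after their values were seen, as were the ranges of 3 of the uncalled members. The submitters call the replicates independent, without saying how flies were divided, so p-values measure the spread between these libraries. Alternatives were DESeq2 1.42.0, its median-of-ratios size factors, library totals, RpL32 counts and TMM without the members as scaling, other filters, an additive model, only the 2 strains compared, a replicate block, and leaving out each library in turn. Fits with only 1 set of replicate numbers of a strain, or without either yw library of ZT22, were added after seeing the data. Values of some members are not reported here.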

Additional observations from a re-analysis of the deposited data

How the results depend on the processing

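Counts of members are of the 84 tested, in the strain named against yw unless stated. Outside the changes of scaling, the share of all genes called in the same fit was not counted. With RpL32 counts as the scaling factor 7 were higher in tim_up126, 5 in tim_up122, 0 in tim_up10 (2 lower) and 6 in tim_in24, and between tim_up126 and tim_up122 1 was higher and 1 lower. With library totals 6 were higher and 1 lower in tim_up126, 46 were higher in tim_up10, and RpL32 in tim_up10 was at 0.18 (adjusted p = 0.17). The additive model gave 24 higher in tim_up126, 1 higher and 11 lower between tim_up126 and tim_up122, and RpL32 past the threshold in tim_in24 (0.27). With no filter on low counts 28 were higher in tim_up126, 1 was higher between tim_up126 and tim_up122, RpL32 in tim_in24 passed the threshold (0.27), and rhythms were called for 1 member in tim_up126, 3 in tim_up122 and 1 in yw. With only the libraries of the 2 strains 32 were higher in tim_up126, 4 were lower between tim_up126 and tim_up122, RpL32 was at 0.01 (0.0066) in tim_up126, the other direction, and at 0.28, past the threshold, in tim_in24. The 1 member lower in tim_up10 was 0 with DESeq2, median-of-ratios size factors, TMM over non-members, no filter, the replicate block, or either set of yw libraries, and the 1 rhythm call in tim_up122 was 0 with DESeq2 and with a mean of at least 10 counts.

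Of the fits added after seeing the data, the tim_up126 libraries numbered 1 gave 19 higher, 2 lower than in tim_up122, and RpL32 at 0.075 against -0.02 with all libraries. Those numbered 2 gave 0 higher, 2 lower, and 13 lower than in tim_up122. The tim_up122 libraries numbered 1 gave 11 higher, 5 lower, 19 higher and 3 lower in tim_up126, and RpL32 at -0.17. Those numbered 2 gave 62 higher, 15 lower in tim_up126, and RpL32 past the threshold (0.26). The yw libraries numbered 1 gave 4 higher in tim_up126, 15 in tim_up122, and RpL32 at 0.017 in tim_up126 and 0.33 in tim_up10, not past the threshold there. Those numbered 2 gave 5 in tim_up126, 14 in tim_up122, and RpL32 at 0.31 in tim_up10, and neither yw library of ZT22 gave RpL32 at 0.30 in tim_up10, none past the threshold. The cause of these changes was not tested, except that fewer libraries enter such fits. Leaving out each library in turn gave 6 to 17 higher in tim_up126, 20 to 47 in tim_up122, 56 to 72 in tim_up10 and 62 to 73 in tim_in24, 0 to 1 lower in tim_up10, 0 to 3 higher and 4 to 14 lower between tim_up126 and tim_up122, and 0 to 1 rhythm calls in tim_up126 and in tim_up122. It gave RpL32 at -0.042 to 0.023 in tim_up126, -0.030 to 0.12 in tim_up122, 0.28 to 0.34 in tim_up10 and 0.23 to 0.30 in tim_in24. The summed family level stayed at 0.09 to 0.14, 0.07 to 0.18, 0.32 to 0.37 and 0.35 to 0.40.

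Replicate numbers did not pair samples between strains: same-numbered libraries of different strains correlated by -0.13 to 0.09 in their deviations. Whether same-numbered libraries of a strain belong together is not tested by these correlations. Within tim_up126 and within tim_up122 the family's share split by replicate number, in opposite directions. A block term shared by all strains cannot take up a split of opposite signs. With the replicate block members higher in tim_up126 numbered 11, those in tim_up122 26, those in tim_up10 71 and those in tim_in24 70, and RpL32 in tim_in24 was past the threshold (0.31, adjusted p = 0.034). Over all alternatives, members named for their changes kept their call in 839 fits and lost it in 79, with none reversed. Depth limits the 7 untested members, whose totals were 68 counts or fewer, and RpS5b.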

Other observations

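Members of 2 other large protein complexes were read in the same way. Of all genes tested 11.2% were higher in tim_up10, 12.3% in tim_in24, 12.1% in tim_up126 and 12.6% in tim_up122. The shares lower were 12.2%, 13.1%, 13.3% and 13.6% in the same order. Of 73 genes of the mitochondrial ribosome, all tested by edgeR, 4 were higher in tim_up10, 7 higher and 3 lower in tim_in24, 4 higher and 1 lower in tim_up126, and 5 higher in tim_up122, each against yw. Their median log2 differences were -0.04, 0.04, -0.04 and 0.04 in the same order. Of 47 proteasome genes listed, 34 were tested, of which 6 were lower in tim_up10, 1 in tim_in24, 5 in tim_up126 and 7 in tim_up122, with medians of -0.13, -0.04, -0.08 and -0.12. With the tim_up126 libraries numbered 1 alone 2 proteasome genes were higher and 1 lower, and with those numbered 2 alone 10 were lower, while 12 were lower with the tim_up122 libraries numbered 1 and 2 with those numbered 2. Of the mitochondrial ribosomal protein genes 6 were higher with the tim_up126 libraries numbered 1, and 3 were higher and 9 lower with those numbered 2. In the fits with 1 set of libraries the share of all genes called was not counted. Between tim_up126 and tim_up122, 4 mitochondrial ribosomal protein genes were lower and 2 proteasome genes were higher in tim_up126, with medians of -0.07 and 0.04. Of all genes tested 5.85% were higher and 5.57% lower in that comparison. The difference between these sets and the cytosolic ribosomal protein genes was not tested.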
